A study of Bos taurus with 27 samples.

Results

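Elastic fibre, fibronectin and small proteoglycan genes were followed in the superficial cervical lymph node of cattle, which receives lymph from the skin of the shoulder and neck. The 10 genes were chosen by name: the elastic fibre genes ELN, FBN1 and LOX, the fibronectin and matricellular genes FN1, POSTN and TNC, and the proteoglycan genes BGN, DCN, LUM and VCAN. The rule that lists them uses no measured value, though the set was drawn up with earlier results of these data known. All 10 were on the array, through 43 of its 45220 probes, among 14495 named genes. The probes of a gene were averaged, and each unnamed probe was tested separately, so that 28927 features were tested in all.

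Elastic fibres are built from elastin, the product of ELN, laid down on a scaffold of fibrillin-1, the product of FBN1, and cross-linked by lysyl oxidase, the product of LOX. Fibronectin (FN1) is an adhesive glycoprotein that cells bind through integrins, while periostin (POSTN) and tenascin-C (TNC) are matricellular proteins, made in remodelling tissue, that alter how cells hold on to matrix. Biglycan (BGN), decorin (DCN) and lumican (LUM) are small leucine-rich proteoglycans that bind collagen fibrils, and versican (VCAN) is a large proteoglycan that binds hyaluronan. In a lymph node such proteins lie in the capsule, the trabeculae, the walls of vessels and the network of fibres that reticular cells wrap.

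Biopsies of 3 breeds were compared at 3 stages, with 3 arrays in each of 9 groups. Bonsmara, Brahman and Holstein-Friesian cattle were sampled while larvae of the tick Rhipicephalus microplus fed, while adult ticks fed, and at a baseline with no tick attached. Brahman cattle are zebu, Holstein-Friesian cattle are taurine and kept for milk, and Bonsmara is a South African composite of both kinds. Every sample was labelled with Cy5 and hybridised beside a Cy3-labelled pool of cattle superficial cervical lymph nodes that all arrays share. Replicates are labelled as biological, and whether one animal gave samples at several stages is not stated. No uninfested group at the later stages was analysed here, so tick feeding cannot be told apart from time or age.

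Each value is a normalised log2 ratio of sample to pool, so a level below 0 is a level below the pool's, and the pool cancels in a difference between groups. The deposited table states neither the logarithm's base nor which channel is on top, and both were taken as likely from the dyes and from the usual form of limma output. In the opposite direction every rise would be a fall. Over all features, the array labelled Holstein-Friesian larva 3 correlated with its own group at -0.085 on average, the only negative value of the 27. The array labelled Bonsmara larva 3 did not differ in that way (0.19 with its own group, against 0.22 and 0.18 for its group's other arrays), but had the highest median of the 10 genes of all arrays (1.01). Both enter the means over breeds, and the called larva differences and the main values within their 2 breeds are also given without them. The 2 arrays move a mean over breeds in opposite directions, so leaving out both partly offsets. The median larva difference of the 10 genes was 0.38 with all arrays, 0.33 without Bonsmara larva 3 and 0.42 without Holstein-Friesian larva 3. The number of arrays limits the precision, with a median standard error (SE) of 0.16 log2 units for a difference within a breed and of 0.094 for a mean over breeds. In a bulk biopsy, more cells of a type and more RNA per cell cannot be told apart.

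ELN, FBN1, FN1, POSTN and BGN rose while larvae fed, as the mean over breeds. FN1 differed by 1.24 log2 units between larva and baseline arrays (SE 0.26, limma adjusted p = 0.0184), the largest difference of the 10. ELN differed by 0.85 (SE 0.13, adjusted p = 0.0013), FBN1 by 0.65 (SE 0.15, adjusted p = 0.0317), POSTN by 0.65 (SE 0.14, adjusted p = 0.0219) and BGN by 0.41 (SE 0.07, adjusted p = 0.00466). Those 5 of 10 genes stand against 0.684% of all features called higher in that comparison, and 0 of 10 were called lower, against 0.529% of features. The median difference of the 10 genes was 0.38 and that of all features -0.019. While adult ticks fed, 0 of 10 genes passed the test against baseline.

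**Figure D1:**
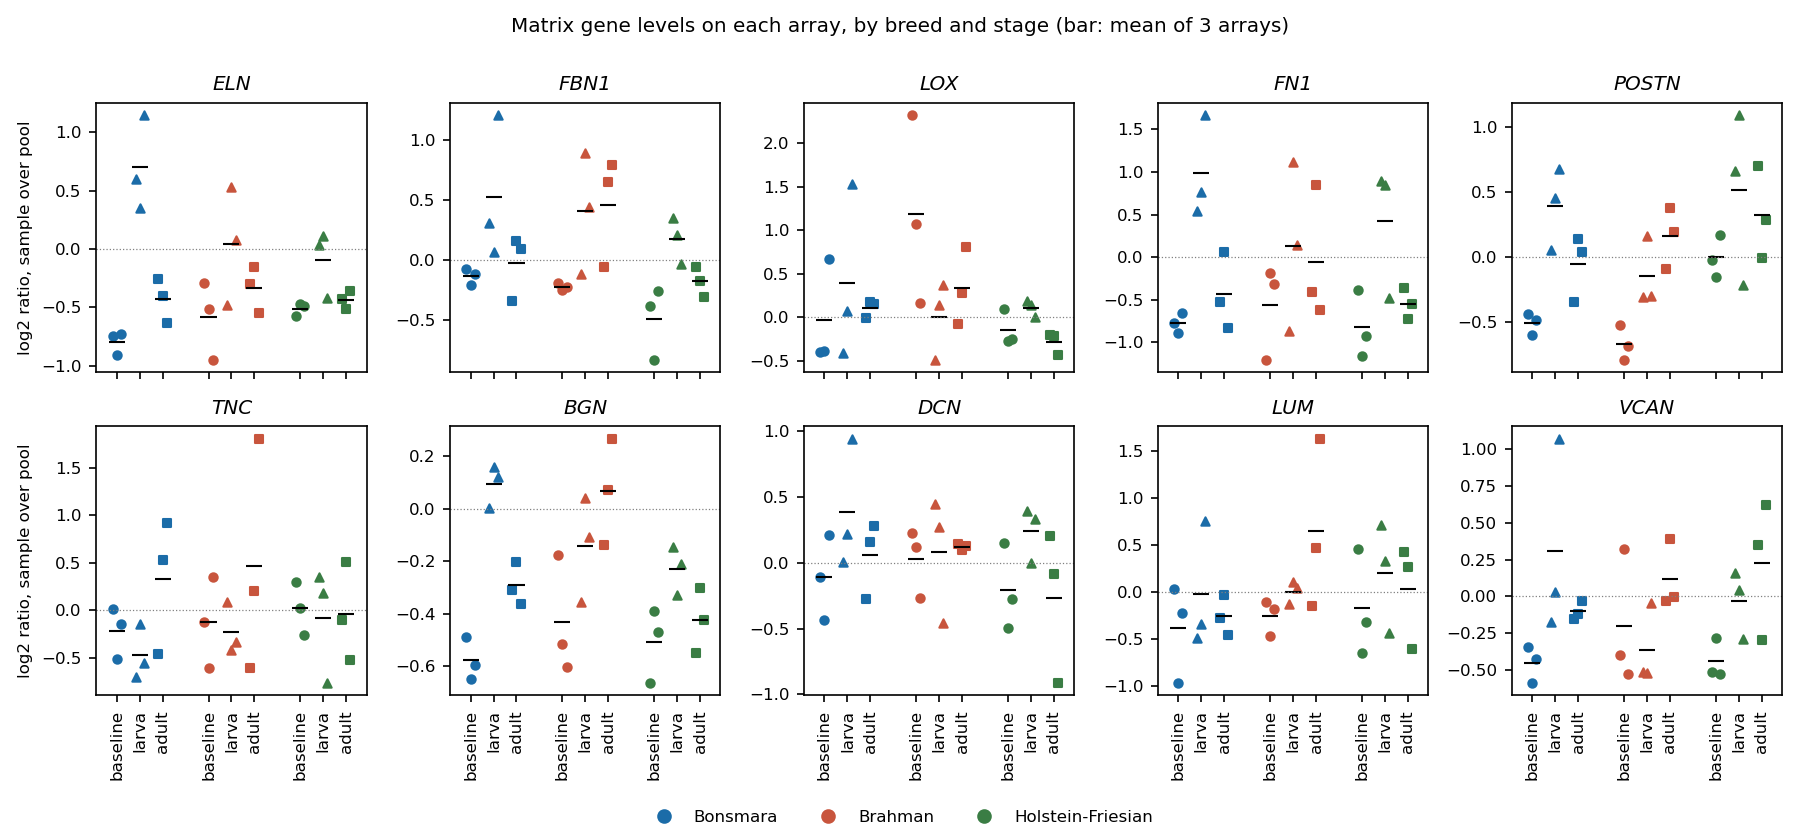
Level of each gene on each of 27 arrays, as the log2 ratio of sample over pool on the vertical axis, with breeds side by side and stages from baseline (circles) through larva (triangles) to adult (squares) within each breed; horizontal bars are means of 3 arrays, and the vertical scale differs between panels. In ELN, FBN1, FN1 and BGN all 9 baseline arrays lie below 0, while 7 larva arrays of ELN, FBN1 and FN1 and 4 of BGN lie above it.

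Of the 3 elastic fibre genes, elastin had the largest larva difference as the mean over breeds and in Bonsmara nodes. In Brahman nodes ELN and FBN1 had nearly the same difference, and in Holstein-Friesian nodes that of FBN1 was larger. In Bonsmara nodes ELN stood at -0.74, -0.91 and -0.73 at baseline, at 0.60, 0.35 and 1.15 in larva arrays, and at -0.26, -0.40 and -0.64 in adult arrays. The 3 larva arrays lay above all the others of the breed, and the adult arrays lay between them and baseline with no overlap on either side. In Brahman nodes ELN stood at -0.29, -0.52 and -0.95 at baseline, at -0.48, 0.53 and 0.08 in larva arrays, and at -0.30, -0.15 and -0.55 in adult arrays. Larva 1 of that breed lay among the baseline arrays and the other two lay above them. In Holstein-Friesian nodes ELN stood at -0.58, -0.47 and -0.49 at baseline, at 0.03, 0.11 and -0.42 in larva arrays, and at -0.42, -0.52 and -0.36 in adult arrays. Larva 3, the array with the negative correlation, was the lowest of the larva arrays, though it lay just above baseline.

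By group mean, ELN was highest in Bonsmara larva arrays (0.70 ± 0.41, SD, n = 3), followed by Brahman larva (0.04 ± 0.50) and Holstein-Friesian larva arrays (-0.09 ± 0.29). The 3 adult groups followed between -0.33 and -0.43, and the 3 baseline groups came last, between -0.51 and -0.79. The arrays of each group overlapped those of its neighbour in that order. The larva difference was 1.49 in Bonsmara (SE 0.22, adjusted p = 0.0018), 0.63 in Brahman (adjusted p = 0.416) and 0.42 in Holstein-Friesian (adjusted p = 0.857). Without Bonsmara larva 3 and Holstein-Friesian larva 3 the Bonsmara difference was 1.27 (adjusted p = 0.0091) and the mean over breeds 0.83 (adjusted p = 0.00157).

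Fibrillin-1 was called for larva feeding as the mean over breeds and in no single breed. Bonsmara nodes had FBN1 at -0.08, -0.21 and -0.12 at baseline, at 0.30, 0.06 and 1.20 in larva arrays, and at -0.34, 0.16 and 0.09 in adult arrays. Brahman nodes had it at -0.19, -0.25 and -0.23 at baseline, at -0.12, 0.89 and 0.44 in larva arrays, and at -0.06, 0.65 and 0.79 in adult arrays. Holstein-Friesian nodes had it at -0.38, -0.83 and -0.26 at baseline, at 0.34, 0.21 and -0.03 in larva arrays, and at -0.06, -0.18 and -0.30 in adult arrays. Within every breed all larva arrays lay above all baseline arrays. The larva difference was 0.66 in Bonsmara, 0.63 in Brahman and 0.66 in Holstein-Friesian (SE 0.26 each), and none passed the test within a breed (adjusted p = 0.218, 0.471 and 0.781 in that order of breeds). Without Bonsmara larva 3 the Bonsmara difference was 0.32, and without Holstein-Friesian larva 3 that breed's was 0.77.

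The mean over breeds for FBN1 lay near the threshold. It was not called in 10 of the 27 fits that left out a single array, with differences from 0.54 to 0.67 and adjusted p from 0.051 to 0.0775. Those arrays were Bonsmara baseline 2 and 3, Bonsmara larva 3, Brahman baseline 2, Brahman larva 2 and 3, Holstein-Friesian baseline 1 and 2, and Holstein-Friesian larva 1 and 2. Without Bonsmara larva 3 and Holstein-Friesian larva 3 together it was 0.57 (adjusted p = 0.0391).

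Lysyl oxidase did not pass the test at any stage, and its highest group mean was that of Brahman baseline nodes. LOX stood at 2.32, 1.06 and 0.16 in the Brahman baseline arrays, at -0.49, 0.14 and 0.37 in Brahman larva arrays, and at -0.08, 0.28 and 0.80 in Brahman adult arrays. Baseline 1 carried the highest LOX level of all 27 arrays, and the arrays of the 3 stages overlapped. In Bonsmara nodes LOX stood at -0.40, -0.39 and 0.67 at baseline, at -0.41, 0.07 and 1.53 in larva arrays, and at -0.01, 0.17 and 0.15 in adult arrays. The Holstein-Friesian values lay closer together, at 0.09, -0.28 and -0.25 at baseline, 0.18, 0.14 and 0.00 in larva arrays, and -0.20, -0.22 and -0.43 in adult arrays. The mean over breeds gave a larva difference of -0.16 (95% confidence interval -0.68 to 0.36, adjusted p = 0.824), which was 0.03 without Brahman baseline 1. The Brahman larva difference was -1.18 (SE 0.44, adjusted p = 0.441), and -0.61 without Brahman baseline 1.

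Fibronectin had the widest spread of the 10 genes over the arrays (SD 0.77, n = 27). In Bonsmara nodes FN1 stood at -0.78, -0.89 and -0.65 at baseline, at 0.54, 0.76 and 1.67 in larva arrays, and at -0.53, 0.07 and -0.83 in adult arrays. Every Bonsmara larva array lay above every other array of that breed. In Brahman nodes it stood at -1.20, -0.18 and -0.31 at baseline, at -0.86, 1.12 and 0.14 in larva arrays, and at -0.41, 0.84 and -0.62 in adult arrays. In Holstein-Friesian nodes it stood at -0.38, -1.16 and -0.92 at baseline, at 0.90, 0.85 and -0.48 in larva arrays, and at -0.36, -0.73 and -0.55 in adult arrays. In each of those breeds 1 larva array lay within the range of baseline, Brahman larva 1 and Holstein-Friesian larva 3, and the other two lay above it. Larva differences were 1.77 in Bonsmara (SE 0.45, adjusted p = 0.0584), 0.70 in Brahman (adjusted p = 0.656) and 1.24 in Holstein-Friesian (adjusted p = 0.756). The Bonsmara difference was called with quantile normalisation (adjusted p = 0.0399), with only named genes tested (adjusted p = 0.0439) and with array weights (adjusted p = 0.0221). It was not called with arrays scaled to one interquartile range or with only the compared arrays. Without Bonsmara larva 3 it was 1.43 (adjusted p = 0.180). The mean over breeds without Bonsmara larva 3 and Holstein-Friesian larva 3 was 1.27 (adjusted p = 0.0108).

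Periostin was lowest in the baseline arrays of Bonsmara and Brahman. In Bonsmara nodes POSTN stood at -0.44, -0.61 and -0.49 at baseline, at 0.05, 0.45 and 0.67 in larva arrays, and at -0.35, 0.14 and 0.04 in adult arrays. In Brahman nodes it stood at -0.53, -0.79 and -0.69 at baseline, at -0.31, 0.16 and -0.30 in larva arrays, and at -0.09, 0.38 and 0.19 in adult arrays. In both breeds the baseline arrays lay below all larva and all adult arrays. In Holstein-Friesian nodes POSTN stood at -0.03, -0.16 and 0.17 at baseline, at 0.66, 1.09 and -0.22 in larva arrays, and at 0.70, -0.01 and 0.28 in adult arrays, and the stages overlapped. The larva difference was 0.90 in Bonsmara (adjusted p = 0.0712), 0.52 in Brahman (adjusted p = 0.509) and 0.52 in Holstein-Friesian (adjusted p = 0.836). The called mean over breeds was 0.72 without Bonsmara larva 3 and Holstein-Friesian larva 3 (adjusted p = 0.00364). It was not called without Brahman larva 2 (0.60, adjusted p = 0.0569) or without Holstein-Friesian larva 1 (0.62, adjusted p = 0.0557).

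Tenascin-C did not pass the test at either feeding stage. In larva arrays TNC ran from -0.77 to 0.35 with a median of -0.33, against -0.61 to 0.35 with a median of -0.12 in baseline arrays. In adult arrays it ran from -0.60 to 1.81 with a median of 0.20. The highest values were those of Brahman adult 3 (1.81), Bonsmara adult 3 (0.92) and Bonsmara adult 2 (0.53), beside the other adult arrays of Brahman at -0.60 and 0.20 and of Bonsmara at -0.46. The mean over breeds was -0.15 for larva against baseline (interval -0.68 to 0.38, adjusted p = 0.846) and 0.36 for adult against baseline (interval -0.17 to 0.89, adjusted p = 0.596).

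Biglycan was the small proteoglycan with the least spread between arrays of a group. In Bonsmara nodes BGN stood at -0.49, -0.65 and -0.60 at baseline, at 0.0039, 0.16 and 0.12 in larva arrays, and at -0.31, -0.20 and -0.36 in adult arrays, so that the 3 stages did not overlap. In Brahman nodes it stood at -0.18, -0.52 and -0.60 at baseline, at -0.35, 0.04 and -0.11 in larva arrays, and at -0.14, 0.07 and 0.27 in adult arrays. There the adult arrays lay above baseline, and larva 1 lay below baseline 1. In Holstein-Friesian nodes it stood at -0.67, -0.39 and -0.47 at baseline, at -0.15, -0.33 and -0.21 in larva arrays, and at -0.55, -0.30 and -0.43 in adult arrays. Larva arrays of that breed lay above its baseline arrays, and adult arrays overlapped them.

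The larva difference of BGN was 0.67 in Bonsmara (SE 0.13, adjusted p = 0.00987), 0.29 in Brahman (adjusted p = 0.480) and 0.28 in Holstein-Friesian (adjusted p = 0.832). The Bonsmara value averages 3 probes that gave unlike differences, from 0.03 to 1.40. The Bonsmara call was lost without Bonsmara larva 2 (0.64, adjusted p = 0.051). Without Bonsmara larva 3 and Holstein-Friesian larva 3, the Bonsmara difference was 0.66 (adjusted p = 0.0415) and the mean over breeds 0.41 (adjusted p = 0.0127).

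Decorin, lumican and versican did not pass the test at any stage. DCN ran from -0.46 to 0.94 in larva arrays (median 0.27), from -0.92 to 0.28 in adult arrays (median 0.13) and from -0.50 to 0.22 in baseline arrays (median -0.11). LUM ran from -0.49 to 0.76 in larva arrays (median 0.04), from -0.60 to 1.63 in adult arrays (median -0.03) and from -0.97 to 0.46 in baseline arrays (median -0.22). The stages overlapped in every breed in both genes, and the highest LUM value was again that of Brahman adult 3. VCAN ran from -0.52 to 1.07 in larva arrays (median -0.05), from -0.30 to 0.62 in adult arrays (median -0.03) and from -0.59 to 0.32 in baseline arrays (median -0.42). In Bonsmara nodes the VCAN arrays lay apart, at -0.18, 0.03 and 1.07 in larva arrays against -0.34, -0.59 and -0.42 at baseline.

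The larva differences as means over breeds were 0.34 in DCN (interval 2.81e-04 to 0.67, adjusted p = 0.399), 0.33 in LUM (interval -0.16 to 0.82, adjusted p = 0.587) and 0.34 in VCAN (interval 0.02 to 0.66, adjusted p = 0.370). All 3 intervals include the BGN difference of 0.41. DCN and LUM lie next to each other in the RefSeq annotation of the ARS-UCD2.0 assembly, in the order EPYC, KERA, LUM, DCN, all genes of small leucine-rich proteoglycans. Over the 27 arrays DCN and LUM correlated at 0.46.

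Probes of one gene gave the larva difference separately, and 39 of the 43 were positive, with 18 called when every probe was its own feature. The share of all probes called in that fit is not given here, so the counts of called probes have no background beside them. Probes of one gene are also not separate results, and the 13 FN1 probes had a median pairwise correlation of 0.94 over the arrays. All 13 FN1 probes were positive, from 0.71 to 1.52, and 11 were called. All 6 ELN probes were positive, from 0.38 to 1.35, and 4 were called. The 3 POSTN probes ran from 0.58 to 0.75 with 1 called, and the 9 DCN probes from 0.01 to 0.51 with 0 called. BGN probes gave the least alike values, with the lowest median pairwise correlation of the 7 genes with several probes (0.13), while the DCN probes had a median of 0.83 and a lowest of -0.08. The 3 BGN probes gave 0.86 (adjusted p = 4.07e-04), 0.35 (adjusted p = 0.0790) and 0.03 (adjusted p = 0.937), and their pairwise correlations over the arrays were 0.09, 0.13 and 0.73. The averaged BGN value thus draws mostly on 1 probe. FBN1, LOX and VCAN had a single probe each, so their values have no such check.

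**Figure D2:**
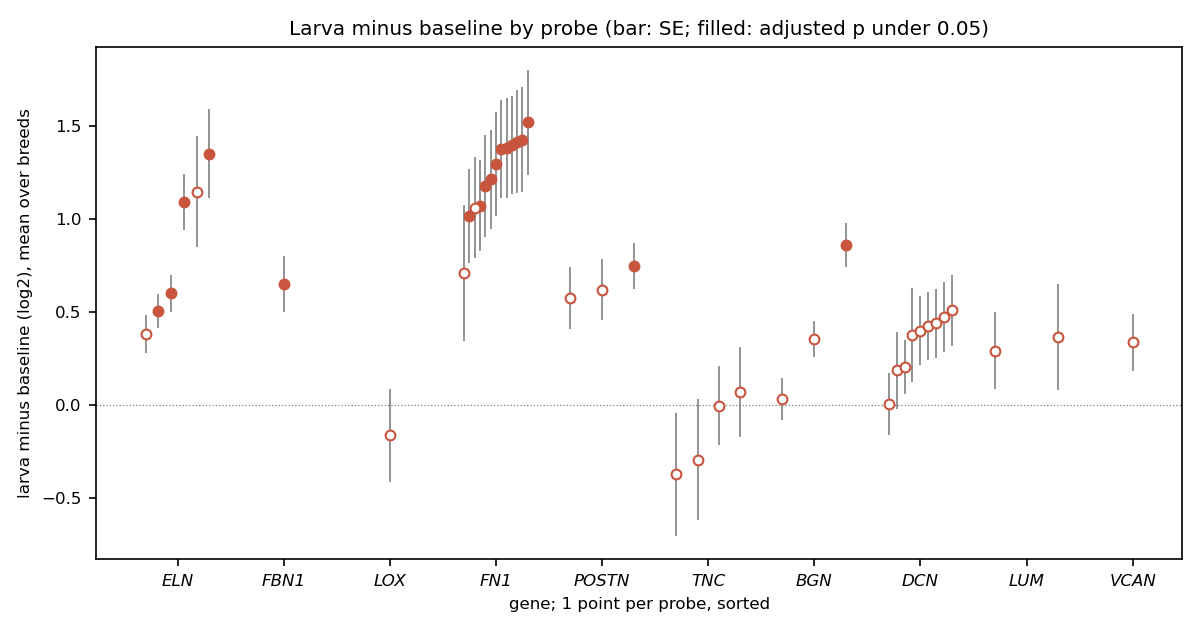
Larva minus baseline difference of each of 43 probes (log2, mean over breeds, vertical axis), grouped by gene along the horizontal axis, with vertical bars of 1 SE and filled points for an adjusted p under 0.05. The 13 FN1 probes lie between 0.71 and 1.52, whereas the 3 BGN probes spread from 0.03 to 0.86.

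With all arrays in the fit, calls within a breed against baseline were found in Bonsmara larva arrays alone. There ELN and BGN were called higher, 2 of 10 genes against 0.505% of features, 0 of 10 were called lower, against 0.608%, and the larva arrays lay above all baseline arrays in 6 of 10 genes, against 12.7% of features. Those 6 were ELN, FBN1, FN1, POSTN, BGN and VCAN, and the median difference of the 10 genes was 0.67, against -0.020 over all features. That median was 0.35 without Bonsmara larva 3, when POSTN gave 0.76 (adjusted p = 0.192), VCAN 0.38, DCN 0.22, LUM -0.03 and LOX -0.13. Both Bonsmara calls were lost when only the Bonsmara larva and baseline arrays were fitted (adjusted p = 0.058 in ELN and 0.0601 in BGN). In Brahman larva arrays 0 of 10 genes were called, where 0% of features were called higher and 2751 had an unadjusted p under 0.05. FBN1 and POSTN lay apart there, 2 of 10 against 5.79% of features. In Holstein-Friesian larva arrays 0 of 10 genes were called, where 0.00346% of features were called higher and 1721 had an unadjusted p under 0.05. ELN, FBN1 and BGN lay apart there, 3 of 10 against 4.44% of features. The median difference of the 10 genes was 0.27 in Brahman and 0.41 in Holstein-Friesian nodes. Without Holstein-Friesian larva 3 that breed's median was 0.56, with ELN at 0.58, FN1 at 1.69 and POSTN at 0.88, and 0 of 10 genes were called.

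A call in one breed and not in another does not show that breeds differed, and the difference of responses was tested on its own. The F test of breed by stage called 0 of 28927 features, with 2023 at an unadjusted p under 0.05. Its lowest unadjusted p among the 10 genes was 0.0166 in BGN and 0.0169 in ELN, both with an adjusted p of 0.668. For ELN the Bonsmara larva response minus the Holstein-Friesian response was 1.07 (SE 0.31, adjusted p = 0.359, where 0.00691% of features were called), and the Brahman response minus the Bonsmara response was -0.86 (SE 0.31, adjusted p = 0.418, where 0% of features were called). For LOX the Brahman response minus the Bonsmara response was -1.61 (SE 0.62, adjusted p = 0.436), and for VCAN it was -0.93 (SE 0.38, adjusted p = 0.457). None of those differences between breeds passed the test. The LOX value was -1.04 without Brahman baseline 1, and the VCAN value was -0.54 without Bonsmara larva 3.

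**Figure D3:**
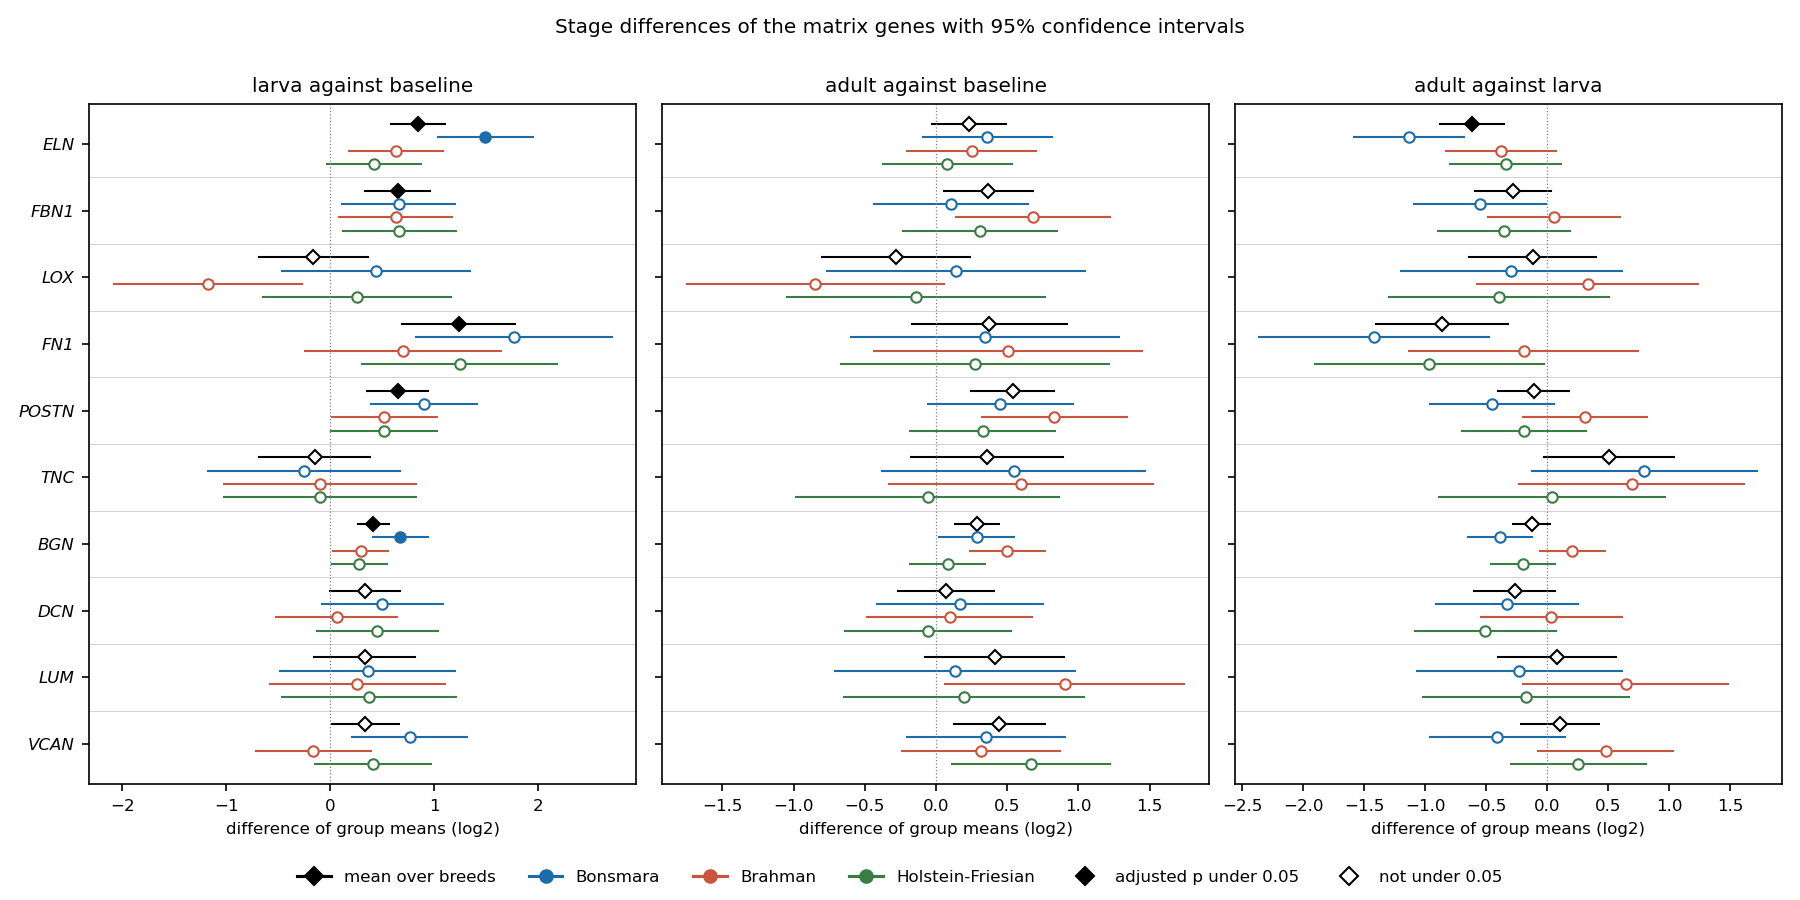
Differences between stages for each gene (log2, horizontal axis) with 95% confidence intervals, for the mean over breeds (diamonds) and each breed (circles); filled symbols have an adjusted p under 0.05. In the left panel 5 genes are called as the mean over breeds and ELN and BGN also in Bonsmara, in the middle panel no gene is called, and in the right panel only the mean of ELN is called, at -0.62.

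No gene of the set passed the test for adult feeding against baseline, where POSTN had the largest difference. As the mean over breeds, adult minus baseline was 0.54 in POSTN (SE 0.14, limma adjusted p = 0.195), 0.45 in VCAN (SE 0.15, adjusted p = 0.292), 0.37 in FBN1 (adjusted p = 0.362), 0.29 in BGN (SE 0.07, adjusted p = 0.170) and 0.23 in ELN (adjusted p = 0.493). FN1 stood at 0.37, LUM at 0.41, TNC at 0.36, DCN at 0.07 and LOX at -0.28. With limma 0 of 10 genes were called, where 0.0311% of features were called higher and 0.00346% lower, and 4 of the 10 had an unadjusted p under 0.05 against 11.5% of features. The median of the 10 genes was 0.36 and that of all features -0.021, and 9 of the 10 were above 0. With every probe as its own feature 1 POSTN probe was called (0.70, adjusted p = 0.0395). Both comparisons with baseline use the same baseline arrays, so their values are not independent.

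Within breeds 0 of 10 genes were called for adult against baseline. The share of features called higher was 0.0104% in Bonsmara and 0% in the other breeds, and that called lower was 0.0207% in Bonsmara and 0% in the other breeds. In Bonsmara nodes ELN (0.36), POSTN (0.45), BGN (0.29) and VCAN (0.35) had all adult arrays above all baseline arrays, 4 of 10 genes against 10.9% of features. In Brahman nodes 3 of 10 genes had all adult arrays above baseline, against 6.64% of features. They were FBN1 (0.68, SE 0.26, adjusted p = 0.351), POSTN (0.83, SE 0.24, adjusted p = 0.262) and BGN (0.50, SE 0.13, adjusted p = 0.213). BGN was called there without Brahman baseline 1 (0.63, adjusted p = 0.0364). LUM had a Brahman difference of 0.90 (SE 0.41, adjusted p = 0.404), with adult arrays at -0.15, 0.46 and 1.63 against -0.11, -0.47 and -0.18 at baseline, and it was 0.41 without Brahman adult 3. In Holstein-Friesian nodes the largest difference was that of VCAN (0.67, SE 0.27, adjusted p = 0.964), and no gene had adult arrays apart from baseline, where 4.83% of features lay apart above.

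Lists of cell type markers stood as follows in the Brahman adult arrays. The mean level of 9 smooth muscle and pericyte markers ran from -0.15 to 0.65 in adult arrays against -0.41 to -0.24 at baseline, and that of 8 blood endothelial markers from -0.16 to 0.95 against -0.36 to -0.25. The 10 fibroblast and reticular cell markers ran from -0.27 to 0.31 in adult arrays against -0.69 to -0.36 at baseline. The 7 T and B cell markers ran from -0.53 to -0.11 in adult arrays against 0.02 to 0.18 at baseline. In these 4 lists the adult and baseline ranges lay apart, while those of the skeletal muscle, adipocyte and keratinocyte markers overlapped. Of single features 6.64% lay apart above and 6.54% below for Brahman adult against baseline. No such share was computed for means of lists. Of all listed markers 0 passed the test in Brahman nodes, where 0% of features were called for adult against baseline. In Bonsmara nodes the fibroblast markers ran from -0.28 to 0.04 in adult arrays against -0.82 to -0.57 at baseline. The smooth muscle and endothelial lists also lay above baseline there. In Holstein-Friesian nodes the fibroblast markers ran from -0.44 to 0.0028 against -0.77 to -0.48. The T and B cell and keratinocyte lists lay below baseline there. The other lists of both breeds overlapped. The part of these cell types in the result was not tested.

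Between the feeding stages ELN was lower in adult than in larva arrays, with a difference of -0.62 as the mean over breeds (SE 0.13, limma adjusted p = 0.0451). It was the 1 of 10 genes called, where 0.0622% of features were called lower and 0.169% higher. That call was lost in 21 of the 27 fits without a single array (differences from -0.67 to -0.54, adjusted p from 0.0521 to 0.122). It was also lost with each probe a feature (adjusted p = 0.0647) and with only the compared arrays (adjusted p = 0.119). Without Bonsmara larva 3 alone it was lost (-0.54, adjusted p = 0.0829), and without Bonsmara larva 3 and Holstein-Friesian larva 3 together it was kept (-0.60, adjusted p = 0.0476). FN1 differed by -0.86 (SE 0.26, adjusted p = 0.194), FBN1 by -0.28 (adjusted p = 0.560) and DCN by -0.27 (adjusted p = 0.635). TNC differed by 0.51 in the other direction (SE 0.26, adjusted p = 0.523). POSTN, BGN, LUM, VCAN and LOX lay between -0.13 and 0.11.

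Within breeds 0 of 10 genes were called between the feeding stages. The share of features called was 0.0277% higher and 0.0207% lower in Bonsmara, and 0% higher and 0.00346% lower in each of the other breeds. In Bonsmara nodes adult minus larva was -1.13 in ELN (SE 0.22, adjusted p = 0.0619), -1.42 in FN1 (SE 0.45, adjusted p = 0.298) and -0.39 in BGN (SE 0.13, adjusted p = 0.311). In those 3 genes all Bonsmara adult arrays lay below all larva arrays, 3 of 10 against 10.4% of features. In Brahman nodes VCAN had all adult arrays above all larva arrays (0.48), 1 of 10 against 6.73% of features. In Holstein-Friesian nodes FBN1 (-0.35) and LOX (-0.39) had all adult arrays below all larva arrays, 2 of 10 against 4.29%.

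No gene of the set passed the test between breeds at baseline. LOX gave 1.33 for Brahman minus Holstein-Friesian (SE 0.44, adjusted p = 0.309) and 1.22 for Brahman minus Bonsmara (SE 0.44, adjusted p = 0.239). POSTN gave -0.66 for Brahman minus Holstein-Friesian (SE 0.24, adjusted p = 0.366) and -0.51 for Bonsmara minus Holstein-Friesian (adjusted p = 0.467). In each of the 3 pairs 0 of 10 genes were called, where 0.0207% of features were called in either direction for Brahman against Holstein-Friesian, 0.225% for Bonsmara against Holstein-Friesian and 0.152% for Brahman against Bonsmara. The LOX values depended on single arrays. Without Brahman baseline 3 it was called for Brahman against Bonsmara (1.73, adjusted p = 0.0484), and without Brahman baseline 1 it was 0.65 there (adjusted p = 0.531) and 0.76 against Holstein-Friesian (adjusted p = 0.511).

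Genes of the set tended to be high on the same arrays. Over the 27 arrays 41 of the 45 pairs had a positive correlation, with a median of 0.42, from -0.33 between ELN and TNC to 0.83 between ELN and FN1. Taken as deviations from group means, 40 of 45 pairs were positive, with a median of 0.38 and the highest at 0.68 between FBN1 and LUM. The arrays share 1 pool and differ in tissue makeup, and the correlations are descriptions. The share of positive pairs among other genes of the array was not computed, so these counts have no background beside them. Group membership took 78.1% of the variance over arrays in BGN, 76.6% in ELN and 67.8% in POSTN, but 30.5% in LUM, 30.0% in DCN and 23.6% in TNC. With 9 groups over 27 arrays a gene with no group effect is expected at 30.8%, so the values of LUM, DCN and TNC were no higher than that.

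**Figure D4:**
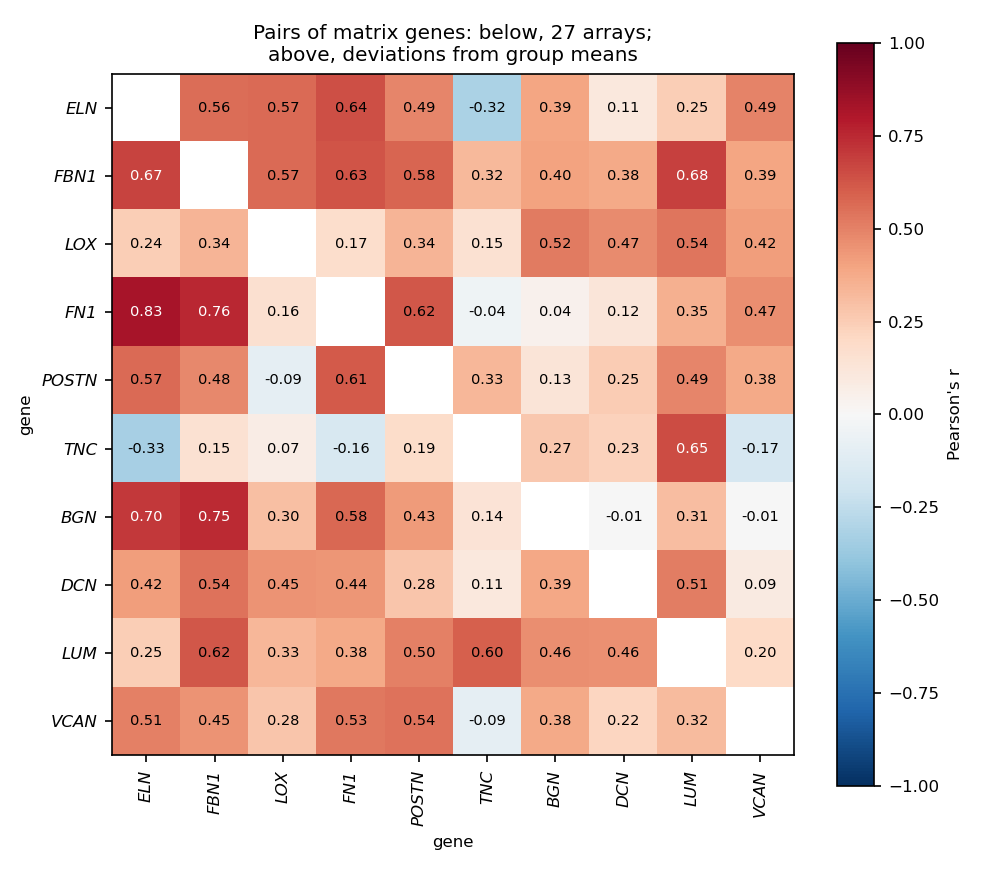
Pearson correlation of each pair of the 10 genes, as colour and number, over 27 arrays (below the diagonal) and over deviations of the same arrays from their group means (above it). ELN, FBN1, FN1 and BGN form a block of correlations from 0.58 to 0.83 below the diagonal, while TNC reaches 0.60 with LUM and -0.33 with ELN. Above the diagonal BGN stands at 0.04 with FN1, 0.39 with ELN and 0.40 with FBN1, and the pairs among ELN, FBN1 and FN1 run from 0.56 to 0.64.

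The genes most like the mean of the 10, each scaled to its own spread, were the laminin chain gene LAMC1 (Pearson's r 0.91 over 27 arrays), FKBP9 (0.90), the smooth muscle actin gene ACTA2 (0.90), the collagen genes COL1A2 (0.89), COL1A1 (0.88) and COL3A1 (0.88), the gelatinase gene MMP2 (0.88) and SPARC (0.88). For single genes, FN1 was closest to COL1A2 (0.92), SPARC (0.91) and COL4A1 (0.90), and ELN to C1QTNF6 (0.89), GREM1 (0.86) and COL1A1 (0.86). FBN1 was closest to A2M (0.90), LAMC1 (0.85) and COL1A1 (0.83), and POSTN to VIM (0.85), PPIC (0.84) and ANXA2 (0.82). BGN was closest to HSPG2 (0.90), COL18A1 (0.90) and BCAM (0.88), and VCAN to FBLIM1 (0.85), TIMP1 (0.82) and SERPINH1 (0.77). DCN was closest to OLFML1 (0.81), PLPP1 (0.73) and CDH13 (0.71), and LUM to IL1R1 (0.83), FLRT2 (0.80) and PARVA (0.80).

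Of 86 other genes of these pathways in 7 lists, 5 rose and 0 fell while larvae fed, as the mean over breeds. That is 5.81%, where 0.684% of all features were called higher, a share at which a list of about 10 genes would most often hold 0. Of 18 further elastic fibre and microfibril genes 1 rose, EFEMP2, which encodes fibulin-4, needed for elastic fibre assembly in mice (0.47, SE 0.09, adjusted p = 0.00853), and the median of the 18 was 0.01. Of 10 fibronectin and tenascin receptors 0 were called, and the alpha 5 integrin gene ITGA5, whose product pairs with beta 1 integrin to bind fibronectin, stood at 0.41 (adjusted p = 0.0657). Of 10 other small leucine-rich proteoglycan genes 0 were called, with ASPN at 0.26 and OGN at -0.41. Of 11 large proteoglycan, hyaluronan and link protein genes 1 rose, HSPG2, which encodes perlecan of basement membranes (0.75, SE 0.13, adjusted p = 0.0053). Of 14 other matricellular genes 1 rose, CCN1 (1.06, SE 0.25, adjusted p = 0.038), with a median of 0.28 over the 14. Of 12 genes of proteases that cut these proteins 2 rose, the versican-cleaving ADAMTS5 (0.53, SE 0.09, adjusted p = 0.00454) and MMP2 (0.53, SE 0.11, adjusted p = 0.0172). Of 11 TGF-beta ligands, receptors and targets 0 were called, with a median of -0.04. While adult ticks fed, 0 genes of these 7 lists were called against baseline, where 0.0311% of features were called higher.

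Some markers of fibroblasts, vessel walls and vessel lining also rose. Of 10 fibroblast and reticular cell markers 7 rose while larvae fed, against 0.684% of all features called higher, and their median was 0.52. The leading ones were the collagens COL1A1 (1.99), COL3A1 (1.61), COL1A2 (1.50) and COL6A1 (0.61). Collagen genes are matrix genes like the 10 of the set, so this list does not measure the cells apart from their matrix genes. The mean level of this list ran from 0.15 to 0.90 in Bonsmara larva arrays against -0.82 to -0.57 at Bonsmara baseline. It ran from -0.40 to 0.33 in Brahman larva arrays against -0.69 to -0.36 at baseline, and from -0.25 to 0.35 in Holstein-Friesian larva arrays against -0.77 to -0.48 at baseline. The larva ranges lay above baseline except in Brahman, where they overlapped. Of single features 12.7% lay apart above in Bonsmara, 5.79% in Brahman and 4.44% in Holstein-Friesian larva arrays. No such share was computed for means of lists, here or for the lists that follow.

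Of 9 smooth muscle and pericyte markers 3 rose while larvae fed, DES (0.63), RGS5 (0.99) and MYH11 (0.51), against 0.684% of all features. Their list mean ran from 0.06 to 0.50 in Bonsmara larva arrays against -0.53 to -0.33 at baseline. It ran from -0.10 to 0.15 in Brahman larva arrays against -0.41 to -0.24 at baseline, and from -0.18 to 0.44 in Holstein-Friesian larva arrays against -0.38 to -0.17 at baseline. The ranges overlapped in Holstein-Friesian nodes alone. Of 8 blood endothelial markers 2 rose, VWF (1.00) and ROBO4 (0.33), against the same 0.684% of features. Their list mean ran from 0.04 to 0.25 in Bonsmara larva arrays against -0.47 to -0.27 at baseline. It ran from -0.36 to 0.04 in Brahman larva arrays against -0.36 to -0.25 at baseline, and from -0.16 to 0.19 in Holstein-Friesian larva arrays against -0.37 to -0.21 at baseline. The Brahman ranges overlapped and the others did not. Of 7 T and B cell markers 1 fell, where 0.529% of all features were called lower. It was CD3G, a chain of the T cell receptor complex (-0.48, SE 0.09, adjusted p = 0.0115). Of the 7, 2 had a difference above 0, and the median was -0.28. In Bonsmara nodes 1 of the 7 was called higher, where 0.505% of features were. The mean level of this list ran from -0.14 to 0.0019 in Bonsmara larva arrays against -0.05 to 0.14 at baseline. It ran from -0.06 to -0.03 in Brahman larva arrays against 0.02 to 0.18 at baseline, and from -0.29 to 0.14 in Holstein-Friesian larva arrays against 0.01 to 0.12 at baseline. The Brahman larva arrays lay below baseline, where 5.46% of single features did, and the other breeds overlapped. Of 9 skeletal muscle, 7 adipocyte and 8 keratinocyte markers 0 were called, with medians of -0.06, 0.09 and -0.03. In adult arrays 2 of these markers were called against baseline, where 0.0311% of all features were called higher. They were COL6A1 (0.57, adjusted p = 0.0326) and COL6A2 (0.44, adjusted p = 0.0487). The part of the share of each cell type in the results was not tested, and ratios to a pool of the same tissue give no level that could show a marker as absent.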

How the data were processed

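Two-colour arrays were read from the deposited table of normalised log2 ratios (45220 probes, 27 arrays, 0 missing values, 0 other columns). The authors used limma, per the submitters' processing notes. The sources used here do not give its version, background correction or normalisation. Medians of the arrays ran from -0.0065 to 0.0062 and their standard deviations from 0.20 to 0.52, a sign of centring without scaling.

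Gene names came from the probe table of the platform and were updated through RefSeq (ARS-UCD2.0, used for names and gene order). A single symbol was found for 30788 probes, several for 0 and none for 14432, and 2393 symbols were updated.

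One model with a mean per group was fitted to all features in limma 3.58.1 (R 4.3.3), with 18 residual and 3.86 prior degrees of freedom. Contrasts were two-sided and adjusted by Benjamini-Hochberg over 28927 features, with a threshold of 0.05, and no filter was set. The code was tested on simulated data. P-values measure the spread between arrays, which the labels call biological replicates.

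The 10 genes and the other lists were chosen with earlier results of these data known. All 10 are named. Of other lists, genes called for larva or adult against baseline over breeds are named, at most 4 by smallest p, or 2 as values where none was called. The 8 genes most like the set and the 3 most like each gene are named by correlation. Alternatives covered probe averaging, scaling, tested features, array weights, robust moderation, arrays fitted, the replicate block and arrays left out.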

Additional observations from a re-analysis of the deposited data

How the results depend on the processing

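The count of genes called higher for larva against baseline over breeds (5) was 3 with arrays scaled to one interquartile range and 3 with only the compared arrays. It ran from 3 to 5 in fits without 1 array, with 3 when Brahman larva 2 or Holstein-Friesian larva 1 was left out. ELN, FN1 and BGN were called in all 27 of those fits and in the 10 other settings, with a highest adjusted p of 0.0497 (FN1). In every count with each probe a feature, a gene is represented by its probe with the smallest p. A gene with several probes thus passes if any of them does, so a call in that setting is no check of the averaged value. For BGN 1 of 3 probes was called there. FBN1 was not called with interquartile scaling (adjusted p = 0.051), array weights (0.07) or only the compared arrays (0.0656), nor POSTN with interquartile scaling (0.0614), quantile normalisation (0.0502) or only the compared arrays (0.054). For adult against baseline the count of 0 became 1 with each probe a feature. For adult against larva the count of 1 (ELN) became 0 with each probe a feature, with only the compared arrays and with the replicate block. It ran from 0 to 1 without 1 array, and was 1 only without Brahman baseline 1 or 3, Brahman larva 1, Brahman adult 1, Holstein-Friesian larva 3 or Holstein-Friesian adult 3.

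The Bonsmara larva count (2) was 4 with each probe a feature, 4 with array weights, 3 (FN1 added) with quantile normalisation, gene symbols only or the replicate block, and 0 with only the compared arrays, where ELN had an adjusted p of 0.058 and BGN of 0.0601. It ran from 1 (without Bonsmara larva 2) to 4 (without Holstein-Friesian larva 3, when FN1 and POSTN were also called, adjusted p = 0.0365 and 0.0204). The Bonsmara adult against larva count (0) was 1 with the median of probes, each probe, interquartile scaling, quantile normalisation or gene symbols only, ELN in each, and 2 with array weights. It ran from 0 to 1, with 1 without Brahman larva 1, Brahman larva 2 or Holstein-Friesian adult 3. The Brahman adult count and the Brahman against Bonsmara baseline count ran from 0 to 1, and the other counts stayed at 0. The causes were not tested.

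Signs turned only in differences that were not called. LOX for larva against baseline over breeds was 0.0541 with quantile normalisation, and ran from -0.3519 to 0.0273 without 1 array, the positive value without Brahman baseline 1. LOX for adult against larva was 0.0536 without Bonsmara larva 3 and Holstein-Friesian larva 3, and ran from -0.2530 to 0.0711 without 1 array, the positive value without Bonsmara larva 3. DCN for adult against baseline ran from -0.0097 (without Holstein-Friesian adult 1) to 0.177. LUM for adult against larva was -0.0144 with array weights, and ran from -0.0827 to 0.2141 without 1 array, below 0 without Brahman adult 3 (-0.0827) or Holstein-Friesian larva 3 (-0.0249).

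Replicate numbers did not meet the rule for pairing (every correlation over 0.1), and no label says what they mark. Same-numbered arrays of a breed had deviations that correlated from -0.30 to 0.18 (median 0.042, 7 of 27 pairs over 0.1). Each of the 27 comparisons set an array against the arrays of another stage of its breed. In 16 of them the array correlated best with its own number, where 9 are expected by chance. With the replicate block the larva count over breeds was 5, Bonsmara FN1 had an adjusted p of 0.0215, and ELN for adult against larva had an adjusted p of 0.0672. Breeds at baseline cannot be compared under the block, and the interaction was not run on compared arrays only. Signal over background is unknown.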

Other observations

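Single arrays held the highest levels of LOX and TNC and of the genes most like them. Brahman baseline 1 stood at 2.32 in LOX, 3.65 in ARSK, 1.38 in CYP8B1 and 0.94 in LOC407218, the 3 genes most like LOX over 27 arrays (r 0.75, 0.75 and 0.76). Without that array their correlations with LOX were between 0.46 and 0.48. Brahman adult 3 stood at 1.81 in TNC, 2.13 in GLRB, 1.60 in LDB2 and 1.91 in B4GALT6, the 3 genes most like TNC (r 0.95, 0.90 and 0.89). Without that array their correlations with TNC were 0.91, 0.83 and 0.80, and Bonsmara adult 3 was the next highest array in all 4 genes.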
